A study of Homo sapiens with 4 samples.

Results

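The genes described here are the enzymes and carriers that remove peroxides, keep protein thiols reduced and make or use glutathione, together with their main regulator and a few of its targets. A gene belonged to the set if it was on a fixed list of 35 symbols, and all probe sets whose platform annotation gave that symbol alone were used. Of 35 genes, 33 had such a probe set, 64 in all among the 54613 of the array, and each gene was represented by its brightest. PRDX5 and FTH1 had no probe set that met this rule and are not analysed here. HMOX1, the inducible heme oxygenase, was too dim to be tested, with intensities of 9.45 and 2.6 in the downregulated clone, against 6.97 and 13.4 in the control clone, which left 32 tested genes.

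The samples were 2 arrays of a DLEU1-downregulated Raji clone and 2 arrays of a wild-type control Raji clone. Raji is an established Burkitt lymphoma line, and DLEU1 is transcribed into a long non-coding RNA and lies in the stretch of chromosome 13 that chronic lymphocytic leukaemia often loses. The downregulated clone was made with TALENs, designer nucleases aimed at DLEU1, and all 4 arrays came from cells grown in RPMI medium with fetal bovine serum. The treatment field names the DLEU1 TALENs for the control arrays too, so the labels do not settle whether the control cells were also exposed to them, and the cut position in DLEU1 is not given in the sources used here. Each genotype was 1 clone, and the labels do not say whether the arrays of a clone came from separate cultures, so each p-value is set against the spread of these 4 arrays alone, and that spread may be technical. An exact two-sided permutation test of 4 arrays in 6 assignments cannot go below p = 0.333.

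Cells meet peroxides through linked systems. Glutathione is built from glutamate, cysteine and glycine in 2 ATP-dependent steps, is spent by glutathione peroxidases and transferases, and is reduced again with NADPH. Thioredoxin and its selenium-containing reductase recycle the peroxiredoxins, the abundant peroxide scavengers of the cytosol and mitochondria. The transcription factor NRF2, encoded by NFE2L2, drives many of these genes and is held at a low level by the adaptor KEAP1, which hands it to a ubiquitin ligase.

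Intensities are given after quantile normalization, which gives the 4 arrays 1 common distribution, because the deposited arrays were not on a common scale. Their trimmed mean intensities were 171.9 and 196.8 on the downregulated arrays and 163.4 and 131.4 on the control arrays. Log2 changes are of log2(intensity + 16), downregulated minus control, with the standard error and the adjusted p of limma over all 32768 probe sets tested, and 0.05 was the threshold. As deposited, the median log2 change of all genes tested was 0.18, against -0.0095 after quantile normalization, so a change as deposited is to be read against that shift. DLEU1 itself had intensities of 505 and 513 in the downregulated clone, against 1400.5 and 1300.5 in the control clone (log2 change -1.38 ± 0.068, adjusted p = 2.92e-06). All 6 measured B-cell markers lay over 10 times above the array median on all 4 arrays, while none of the 5 T-cell and none of the 5 myeloid markers lay above the median on all 4. Of 3 erythroid markers HBB did so, and of 5 fibroblast markers COL1A1, both at probe sets prone to cross-hybridisation. The summed deposited intensity of the fibroblast markers was 114.6 and 167.7 on the downregulated arrays and 193.2 and 202.2 on the control arrays, and its part in the results was not tested.

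Most of the tested antioxidant genes were higher in the DLEU1-downregulated clone. Of 32 tested genes 19 rose (59.4%), where 20.6% of all 13292 genes tested rose, and 4 fell (12.5%), where 20.6% of all genes tested fell. The remaining 9 did not pass. In either direction 41.2% of all genes and 33.8% of all probe sets tested passed. The median log2 change of the 32 was 0.30, against -0.0095 for all genes tested. The rises were led in size by the quinone reductase NQO1 and the glutathione peroxidase GPX1, and the falls were those of GPX7, TXNIP, CAT and GPX4, of which GPX7 alone fell by more than 2-fold. These 2 rises were the only ones of at least 2-fold, a size that 2.69% of all genes tested reached. The values of the downregulated arrays lay wholly above those of the control arrays in 22 of 32 genes (34.0% of all genes tested) and wholly below in 6 (35.9%). In RNA from a whole culture, fewer cells with a transcript and less of it per cell cannot be told apart.

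As deposited, 20 of the 32 rose (20.3% of all genes tested) and GPX7 alone fell (5.74%), with a median of 0.65 beside 0.18 for all genes. After median centring 27 rose (36.7%) and GPX7 alone fell (8.42%), with a median of 0.69 beside 0.23. The other falls, of CAT, GPX4 and TXNIP, were thus called only after quantile normalization or with a common trimmed mean. As deposited, GPX7 had 2.9 and 5.0 in the downregulated clone, also under the constant added before the log2. Of the 19 rises, 17 were called under all 3 other scalings, the exceptions being GSTP1 and FTL. In 2 of these scalings the median of all genes was itself shifted upward, to 0.18 and 0.23, so a rise is more easily kept there. The share of all called genes that kept their call was not computed, so 17 of 19 is not a trait of these genes. The rises of HMOX2, MGST3, GSTP1, GLRX and PRDX4 were not called in every fit with 1 array left out. When limma's variance prior did not follow intensity, 11 rose (12.2% of all genes) and GPX7 alone fell (12.7%). The calls then lost were those of PRDX4, GCLC, HMOX2, GLRX, GLRX3, MGST3, GSTP1 and FTL among the rises and of TXNIP, GPX4 and CAT among the falls.

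**Figure D1:**
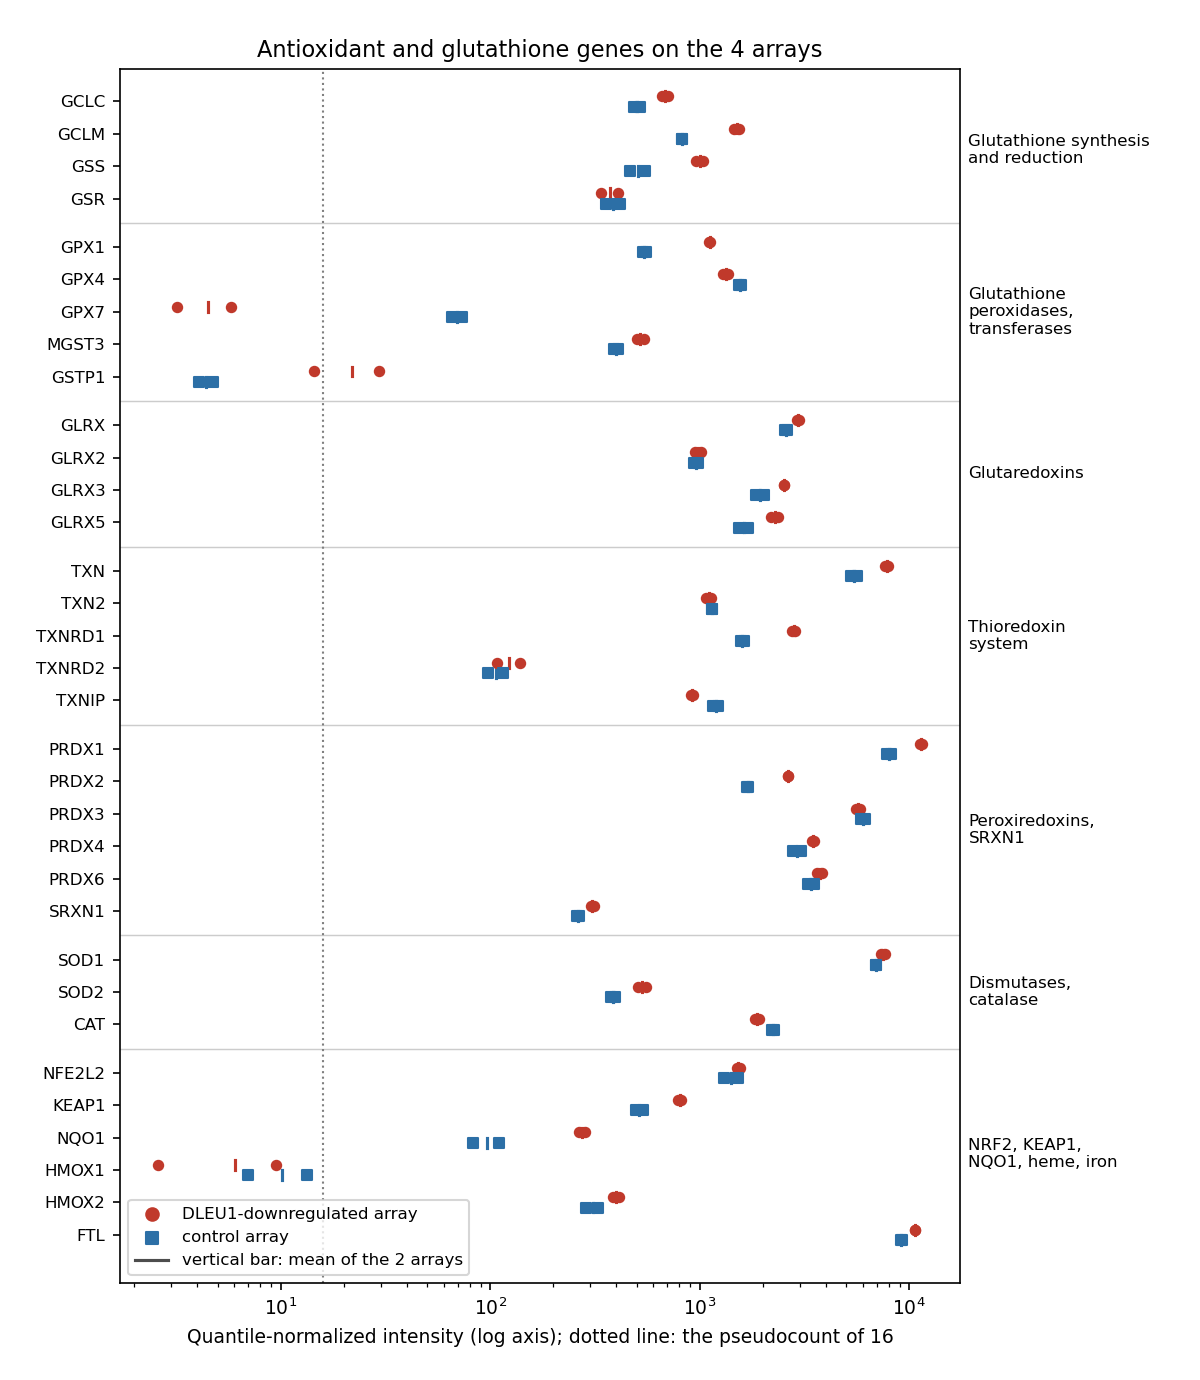
Quantile-normalized intensity (log axis) of the brightest probe set of each of the 33 measured genes on the 2 DLEU1-downregulated arrays (circles) and the 2 control arrays (squares), grouped by role, with vertical bars at the group means. The arrays of a clone lie close together for most genes, and GPX7, GSTP1 and HMOX1 lie partly or wholly under the pseudocount of 16 (dotted line).

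KEAP1 rose while NFE2L2 did not pass, and NQO1 had the largest rise of the 32 genes. NFE2L2 had intensities of 1505 and 1555 in the downregulated clone, against 1525 and 1309 in the control clone. The groups overlapped, and its log2 change was 0.11 (95% interval -0.06 to 0.28, adjusted p = 0.29), although it passed without control replicate 1 (adjusted p = 0.0324) and after median centring (adjusted p = 0.000601). KEAP1 had intensities of 817 and 790.0 in the downregulated clone, against 498 and 534 in the control clone, and rose by 0.62 ± 0.073 on the log2 scale (adjusted p = 0.000238). NQO1, which reduces quinones with NADH or NADPH and is a classic readout of NRF2, averaged 273 ± 12.5 in the downregulated clone and 96.8 ± 19.3 in the control clone (SD, n = 2 arrays each), a 2.82-fold difference. Its log2 change was 1.37 ± 0.14 (adjusted p = 0.000121), and its other probe sets rose by 1.86 (adjusted p = 4.33e-05) and 1.38 (adjusted p = 0.000431). Both downregulated arrays stood well above both control arrays in each NQO1 probe set.

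NRF2 and small MAF proteins bind the antioxidant response element, whose core is TGACNNNGC. RefSeq promoter windows (GRCh38.p14, from 250 bases before to 50 after a start site) were found for 26 of the 35 genes and searched on both strands for this core. A match was present in 4 of the 26 genes (15.4%), where 16.1% of all 27305 genes with a window had one. By window, 5 of 41 held it (12.2%), against 13.3% of all 35116. The 4 genes were GCLM, GSTP1, KEAP1 and TXNRD1, all of which were called higher. GSTP1 passed the filter on dim probe sets through the downregulated arrays, and was not called as deposited (adjusted p = 0.0509). They are 4 of the 16 rising genes with a window, and the other 10 genes with a window held no match. These counts are small, the share of all members is near that of all genes, and whether matches go with the rises was not tested. The stretches around the matches are shown because they are where these promoters share letters, 5′ to 3′ on the gene's strand, with the core in capitals.
GCLM (chr1:93909431-93909489, minus strand): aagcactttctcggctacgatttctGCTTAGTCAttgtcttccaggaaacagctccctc
KEAP1 (chr19:10502769-10502850, minus strand): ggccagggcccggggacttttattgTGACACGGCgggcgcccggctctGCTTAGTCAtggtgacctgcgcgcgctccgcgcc
TXNRD1 upstream start site (chr12:104215655-104215783, plus strand): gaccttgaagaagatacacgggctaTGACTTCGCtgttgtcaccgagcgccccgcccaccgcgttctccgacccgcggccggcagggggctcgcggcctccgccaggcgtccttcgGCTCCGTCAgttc
TXNRD1 downstream start site (chr12:104286905-104286963, plus strand): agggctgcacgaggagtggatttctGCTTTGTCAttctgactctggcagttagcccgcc
GSTP1 (chr11:67583721-67583779, plus strand): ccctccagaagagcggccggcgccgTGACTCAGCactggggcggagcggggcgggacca
GCLM and KEAP1 hold the same letters, GCTTAGTCA, the core read on the other strand. The GSTP1 match overlaps the AP-1 motif TGANTCA, which 7.71% of all windows hold, and the other matches do not overlap that motif. A match describes letters in the window and does not show binding, and NQO1 has no match in the window searched.

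All 3 genes of glutathione synthesis, GCLC, GCLM and GSS, rose, while GSR, of its recycling, did not pass. Glutamate-cysteine ligase makes the first bond and sets the rate, with GCLC as its catalytic and GCLM as its modifier subunit. GCLC had intensities of 659.8 and 705 in the downregulated clone, against 521 and 488 in the control clone. Its log2 change was 0.42 ± 0.077 (adjusted p = 0.0028), and its next brightest probe set rose by 0.36 (adjusted p = 0.018). GCLM, whose promoter is shown above, averaged 1502 ± 61.3 in the downregulated clone and 827 ± 1.13 in the control clone (SD, n = 2 arrays each), and rose by 0.85 ± 0.061 on the log2 scale (adjusted p = 1.59e-05). Its other 2 probe sets rose too, by 0.82 (adjusted p = 0.000266) and 1.19 (adjusted p = 0.00416), so that GCLM was called at every probe set. GSS, glutathione synthetase, which adds glycine, had intensities of 1034 and 963 in the downregulated clone, against 466 and 551 in the control clone. It rose 1.96-fold in mean intensity (log2 change 0.95 ± 0.090, adjusted p = 6.87e-05), and by 0.67 at its other probe set (adjusted p = 0.000292). GSR, the reductase that returns oxidised glutathione to its reduced form, had intensities of 407 and 338 in the downregulated clone, against 415 and 356 in the control clone. The groups overlapped (log2 change -0.05, 95% interval -0.31 to 0.21, adjusted p = 0.782), and as deposited the log2 change was 0.28 (adjusted p = 0.479).

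Among the members of the glutathione peroxidase family, GPX1 rose and GPX7 fell, each by more than 2-fold. GPX1, the main cytosolic glutathione peroxidase and a selenoprotein, averaged 1118 ± 6.29 in the downregulated clone and 545 ± 11.9 in the control clone (SD, n = 2 arrays each). That is a 2.05-fold difference, with a log2 change of 1.02 ± 0.065 (adjusted p = 9.19e-06), well beyond the spread between the arrays of a clone. GPX7, which acts in the endoplasmic reticulum during oxidative protein folding, had intensities of 3.2 and 5.8 in the downregulated clone, against 65.7 and 73.1 in the control clone. Both downregulated values lie under the added 16, and the gene passed the filter on dim probe sets through the control arrays. The log2 change of -2.06 ± 0.22 (adjusted p = 0.000133) is therefore set in part by that number. GPX4, which repairs lipid peroxides in membranes, had intensities of 1367 and 1291 in the downregulated clone, against 1567 and 1539 in the control clone. It fell by 0.22 on the log2 scale (adjusted p = 0.0157), but the call was lost without downregulated replicate 2 (adjusted p = 0.129) and without control replicate 1 (adjusted p = 0.0514). As deposited its log2 change was 0.13 (adjusted p = 0.743), and it was 0.17 after median centring.

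The glutathione transferases gave less certain values. MGST3, a microsomal transferase, had intensities of 541 and 503 in the downregulated clone, against 389.9 and 409 in the control clone, and rose by 0.37 ± 0.082 on the log2 scale (adjusted p = 0.00761, and 0.0843 without downregulated replicate 1). A dimmer MGST3 probe set prone to cross-hybridisation went the other way, with 25.1 and 22.9 in the downregulated clone, against 145 and 163 in the control clone (log2 change -2.09, adjusted p = 2.66e-05). With the mean of its probe sets MGST3 had a log2 change of -0.45 (adjusted p = 0.0517), so its direction depends on the probe set. GSTP1, a cytosolic transferase of the pi class, had intensities of 29.5 and 14.4 in the downregulated clone, against 4.75 and 4.08 in the control clone. These values lie near or under the added 16, and the gene passed the filter through the downregulated arrays. It rose by 0.87 ± 0.28 on the log2 scale (adjusted p = 0.043), but not as deposited (adjusted p = 0.0509) nor without control replicate 1 (adjusted p = 0.0935) or control replicate 2 (adjusted p = 0.113). Without either downregulated array it was too dim to be tested.

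Glutaredoxins use glutathione to free protein thiols, and 3 of the 4 rose. GLRX5, a mitochondrial glutaredoxin of iron-sulfur cluster assembly, had intensities of 2376 and 2200.5 in the downregulated clone, against 1548 and 1704 in the control clone (log2 change 0.49 ± 0.065, adjusted p = 0.000459). GLRX3, which acts in iron handling in the cytosol, had intensities of 2527 and 2528 in the downregulated clone, against 1859.9 and 2026 in the control clone, at a probe set prone to cross-hybridisation. It rose by 0.38 ± 0.056 on the log2 scale (adjusted p = 0.000843), while a dimmer probe set with the same suffix fell by 0.31 (adjusted p = 0.0229) and another, the dimmest, rose by 0.77 (adjusted p = 0.03). The GLRX3 call was lost with its brightest probe set without that suffix (log2 change 0.38, adjusted p = 0.209) and with its 4 probe sets averaged (0.31, adjusted p = 0.0698). GLRX, the main cytosolic form, had intensities of 2990.2 and 2900.3 in the downregulated clone, against 2559 and 2620.4 in the control clone, and rose by 0.18 (adjusted p = 0.0143), a call lost without downregulated replicate 1 (adjusted p = 0.111) or replicate 2 (adjusted p = 0.0511). GLRX2, a mitochondrial and nuclear form, had a log2 change of 0.03 (95% interval -0.12 to 0.18, adjusted p = 0.798), with overlapping groups. After median centring it rose by 0.43 (adjusted p = 0.00621).

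The genes of cytosolic thioredoxin and its reductase rose. Those of the mitochondrial pair did not pass at their brightest probe sets after quantile normalization, but both passed after median centring. TXNRD1, the cytosolic thioredoxin reductase, averaged 2812 ± 55.8 in the downregulated clone and 1595 ± 34.3 in the control clone (SD, n = 2 arrays each). Its log2 change was 0.81 ± 0.050 (adjusted p = 7.71e-06), a 1.76-fold difference. TXN, its cytosolic substrate, had intensities of 7672 and 7962 in the downregulated clone, against 5648 and 5306 in the control clone, and rose by 0.51 ± 0.044 (adjusted p = 4.01e-05). The dimmer TXN probe set rose by 0.33 (adjusted p = 0.0224). For the mitochondrial pair, TXN2 had intensities of 1073 and 1136 in the downregulated clone, against 1142 and 1142 in the control clone (log2 change -0.05, 95% interval -0.19 to 0.09, adjusted p = 0.594), and its other probe set fell by 0.23 (adjusted p = 0.0273). TXNRD2 had intensities of 139 and 108 in the downregulated clone, against 97.8 and 115 in the control clone, with overlapping groups (log2 change 0.19, 95% interval -0.18 to 0.55, adjusted p = 0.422). After median centring TXN2 rose by 0.34 (adjusted p = 0.0306) and TXNRD2 by 0.47 (adjusted p = 0.0365), where 36.7% of all genes tested rose. Whether the cytosolic and mitochondrial genes differ in their change was not tested. TXNIP, an arrestin-like protein that binds and inhibits thioredoxin, had intensities of 932 and 907 in the downregulated clone, against 1153 and 1229.7 in the control clone. It fell by 0.37 ± 0.063 (adjusted p = 0.00205), as did its other probe sets, by 0.44 (adjusted p = 0.00393) and 0.38 (adjusted p = 0.0231). As deposited TXNIP had a log2 change of -0.0061 (adjusted p = 0.991), and 0.04 after median centring.

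Peroxiredoxins reduce hydrogen peroxide with thioredoxin as the electron donor, and the cytosolic PRDX1 and PRDX2 and the endoplasmic reticulum form PRDX4 rose. PRDX1 averaged 11357 ± 199 in the downregulated clone and 7980.4 ± 251 in the control clone (SD, n = 2 arrays each). Its log2 change was 0.51 ± 0.037 (adjusted p = 1.7e-05). PRDX2 had intensities of 2643 and 2636 in the downregulated clone, against 1699 and 1688 in the control clone, and rose by 0.64 ± 0.048 (adjusted p = 2.05e-05). Of its 3 dimmer probe sets, 2 rose, each by 0.49 (adjusted p = 0.00808 and 0.0327), and the dimmest did not pass. PRDX4 had intensities of 3419.9 and 3532 in the downregulated clone, against 2795 and 3047 in the control clone, a log2 change of 0.25 (adjusted p = 0.00622) that did not pass without downregulated replicate 2 (adjusted p = 0.0518). The control arrays of PRDX1, PRDX2 and PRDX4 all lay below both downregulated arrays.

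PRDX3, the mitochondrial peroxiredoxin, had intensities of 5582 and 5851 in the downregulated clone, against 6163 and 5910.2 in the control clone. Its log2 change was -0.08 (95% interval -0.18 to 0.02, adjusted p = 0.198), although it rose by 0.28 after median centring (adjusted p = 0.00893). PRDX6, which uses glutathione and also repairs phospholipids, had intensities of 3836 and 3637 in the downregulated clone, against 3291 and 3508 in the control clone (log2 change 0.14, adjusted p = 0.0689). It passed as deposited (adjusted p = 0.0341) and without control replicate 2 (adjusted p = 0.0349), and its second probe set rose by 0.43 (adjusted p = 0.000147). SRXN1, sulfiredoxin, which rescues over-oxidised peroxiredoxins and is an NRF2 target, had intensities of 312 and 301 in the downregulated clone, against 259.5 and 266 in the control clone. The groups did not overlap, but the log2 change of 0.21 (95% interval -0.0014 to 0.42) did not pass (adjusted p = 0.119). After median centring SRXN1 rose by 0.56 (adjusted p = 0.0036).

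Superoxide dismutases turn superoxide into hydrogen peroxide, which catalase breaks down in peroxisomes. SOD2, the mitochondrial dismutase, had intensities of 508 and 557 in the downregulated clone, against 393 and 379 in the control clone, at its 1 probe set that met the rule. It rose by 0.45 ± 0.084 on the log2 scale (adjusted p = 0.00334). SOD1, the cytosolic copper and zinc form, had intensities of 7634 and 7323 in the downregulated clone, against 6947 and 6963 in the control clone (log2 change 0.10, 95% interval 0.02 to 0.19, adjusted p = 0.0635), and passed as deposited (adjusted p = 0.0358). CAT had intensities of 1917 and 1839 in the downregulated clone, against 2209 and 2262 in the control clone, and fell by 0.25 ± 0.051 (adjusted p = 0.00508, 0.0557 without downregulated replicate 2 and 0.232 with its probe sets averaged). As deposited its log2 change was 0.12 (adjusted p = 0.734), and 0.17 after median centring, so the direction of CAT, like that of GPX4, depended on the scaling.

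Heme oxygenase opens the heme ring and frees iron, which ferritin stores. HMOX2, the constitutive form, had intensities of 412 and 385 in the downregulated clone, against 288 and 328 in the control clone, and rose by 0.36 ± 0.098 (adjusted p = 0.0206). The call was lost without downregulated replicate 1 (adjusted p = 0.154), downregulated replicate 2 (adjusted p = 0.0639) or control replicate 1 (adjusted p = 0.0834), and with its 2 probe sets averaged (adjusted p = 0.38). FTL, the light chain of ferritin, had intensities of 10695 and 10670.2 in the downregulated clone, against 9231 and 9155 in the control clone, and rose by 0.22 ± 0.033 (adjusted p = 0.000949). Both FTL probe sets are prone to cross-hybridisation, and the call was not made with a common trimmed mean. Both downregulated arrays lay above both control arrays for HMOX2 and for FTL.

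**Figure D2:**
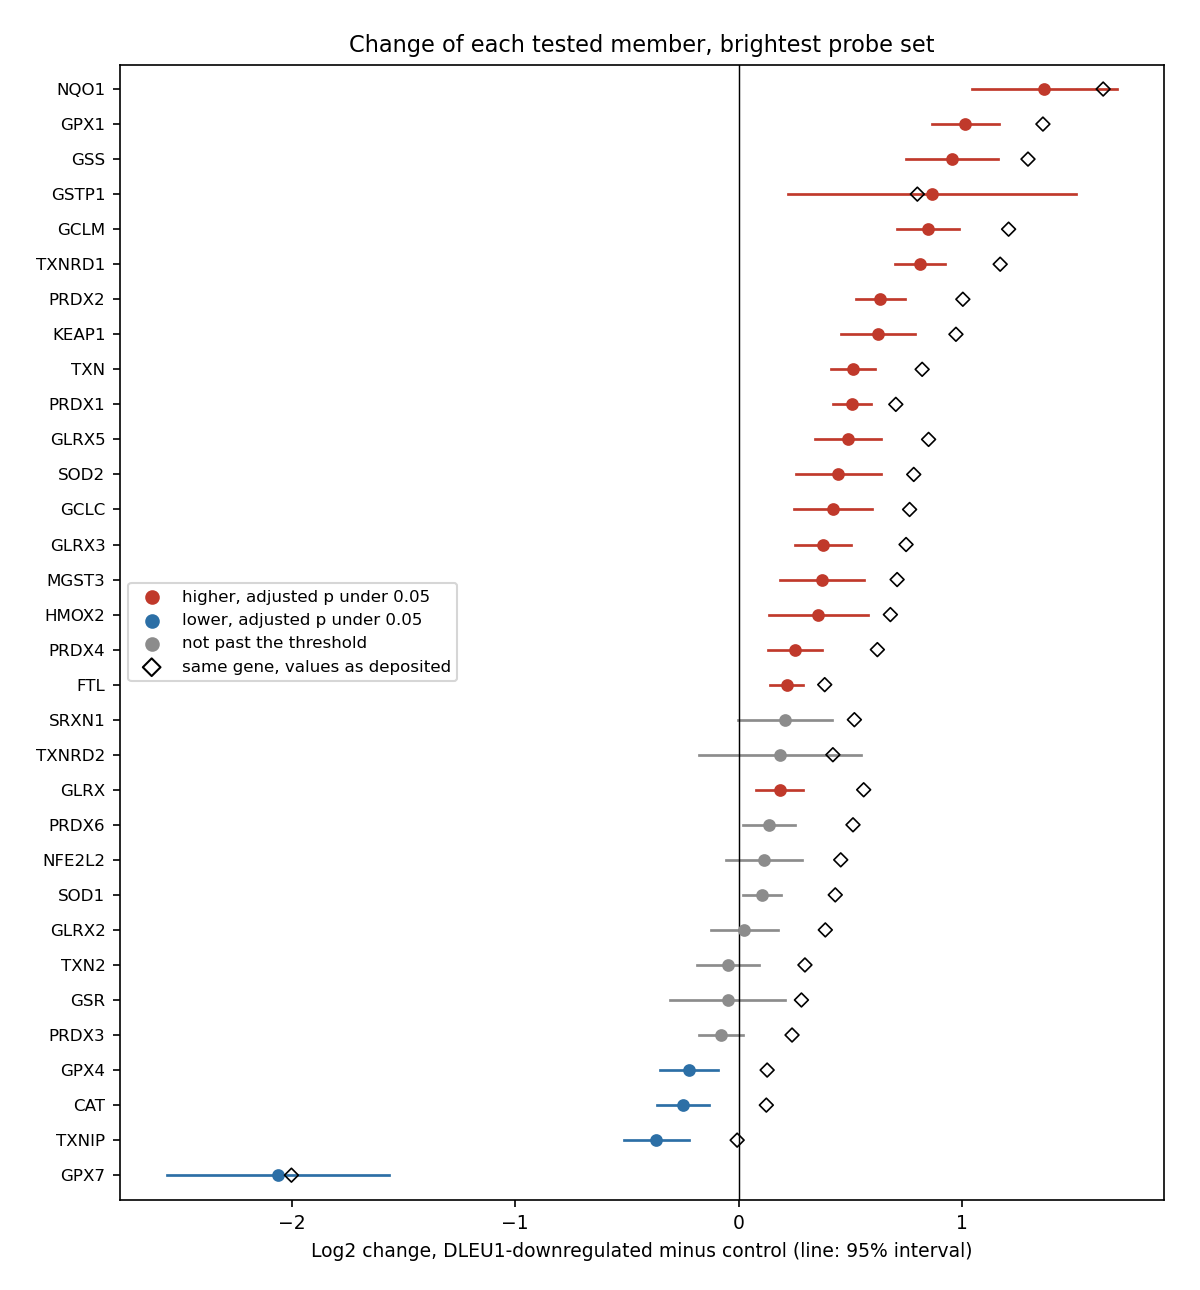
Log2 change (downregulated minus control) with its 95% interval for the 32 tested genes after quantile normalization, coloured by call, with the change of the values as deposited as open diamonds. NQO1 lies at 1.37 and GPX7 at -2.06, and the diamonds of GPX4 and CAT lie on the other side of 0 from their circles.

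Probe sets of a gene did not always go the same way. Of 19 genes with several tested probe sets, GCLM, NQO1, GSS, GLRX, TXN and FTL rose at every tested probe set, and TXNIP fell at every tested probe set after quantile normalization. MGST3 and GLRX3 had calls in both directions, in each case with a fall at a probe set that carries the suffix _x_at. The brightest GLRX3 probe set, which rose, carries that suffix too, so the suffix does not separate the directions of GLRX3. CAT, HMOX2, NFE2L2, PRDX2, PRDX3 and TXNRD2 also had log2 changes of both signs. Among them, CAT had a dim probe set at 0.21 and HMOX2 a second probe set at -0.10, neither of which passed. NFE2L2 had no call at any of its 3 probe sets after quantile normalization, with log2 changes of -0.40, 0.11 and 0.93. The last of these, a dim probe set, lay just over the threshold (adjusted p = 0.0504). As deposited that probe set was called higher (log2 change 0.96, adjusted p = 0.0034).

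**Figure D3:**
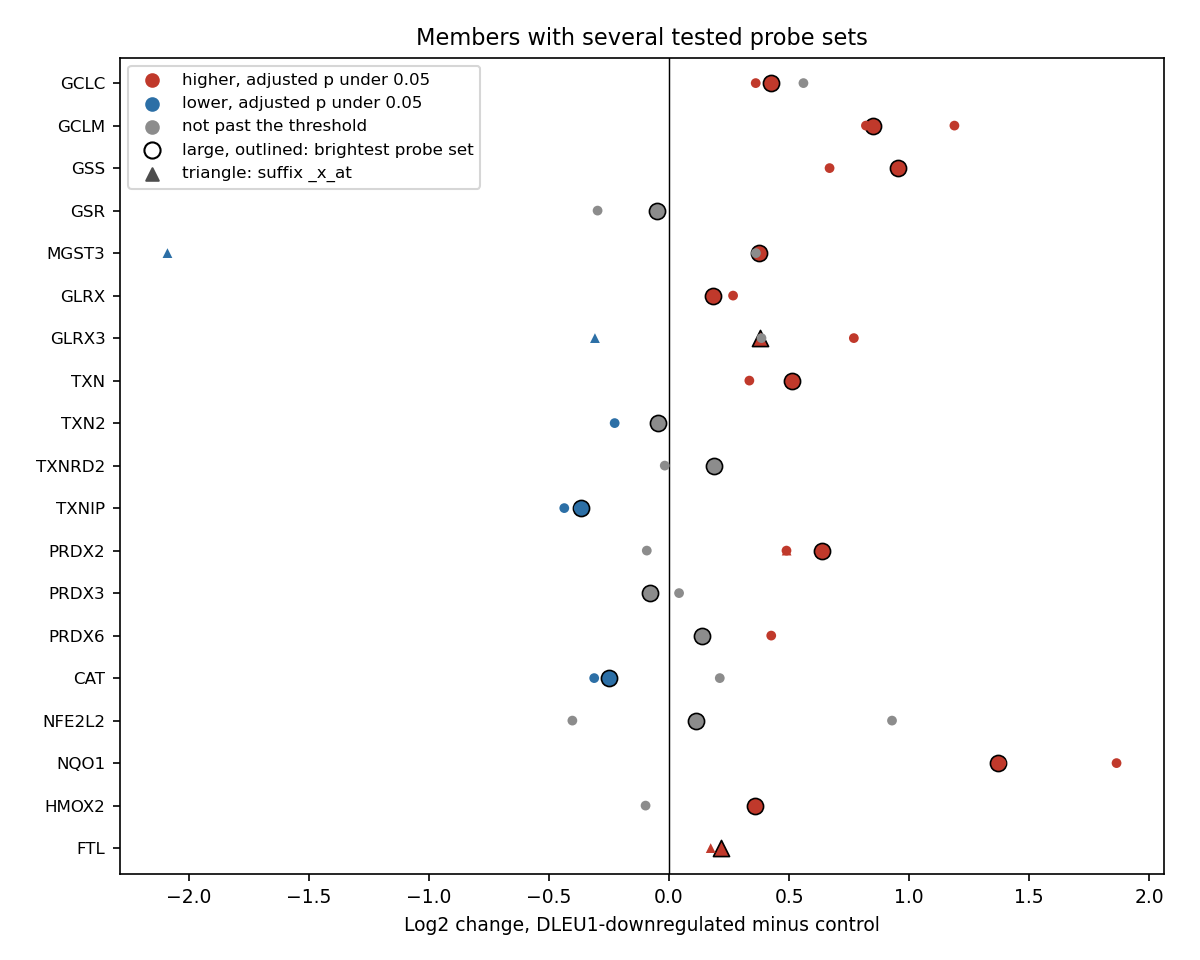
Log2 change (downregulated minus control) of each tested probe set for the 19 genes with several, coloured by call, with the brightest probe set large and outlined and probe sets with the suffix _x_at as triangles. The probe sets of GCLM, NQO1 and GSS lie together to the right of 0, while MGST3 has a dim probe set at -2.09.

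The position of the genes was set beside their changes, as the median log2 change of the 10 nearest tested genes on each side. GPX1 stood at 1.02 where its neighbours had a median of -0.15, and GCLM at 0.85 where its neighbours had -0.15. For NQO1 the neighbours' median was 0.02. GSS lies on chromosome 20, whose tested genes had a median of 0.29. Its neighbours had 0.23, beside its own 0.95. SRXN1, on the same chromosome, had 0.21 where its neighbours had 0.26. It had 18 neighbours, as fewer than 10 tested genes lie between it and the chromosome end. Of these 18, 8 rose and 0 fell by limma's adjusted p. GSR lies on chromosome 8 in a stretch where 10 of its 20 neighbours fell and 0 rose by limma's adjusted p, with a median of -0.30. Its own log2 change was -0.05. GLRX2 likewise had 0.03 beside neighbours at -0.34. The counts of neighbours are to be read beside the 20.6% of all genes tested that rose and the 20.6% that fell. KEAP1 had 0.62 beside 0.21, GCLC 0.42 beside 0.24 and HMOX2 0.36 beside 0.15, so these rises lay among neighbours with a raised median. GPX7 had -2.06 beside 0.15. The part of copy number in these values was not tested.

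A further 10 lists gave the setting of the pathway, with 142 tested genes in all, of which 38 rose (26.8%) and 33 fell (23.2%). After quantile normalization 20.6% of all genes tested rose and 20.6% fell, and the median log2 change of the 142 was 0.008, against -0.0095. As deposited 37 of the 142 rose and 8 fell, where 20.3% of all genes tested rose and 5.74% fell. The counts of each list below are to be read beside these shares. These lists serve as setting, and no list was tested as a whole.

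Around NRF2 itself, 3 of 11 partners and repressors rose and 1 fell (median log2 change -0.01), or 3 and 1 as deposited (median 0.36). NFE2L3, a relative of NRF2, had intensities of 309 and 370.5 in the downregulated clone, against 82 and 98 in the control clone (log2 change 1.75, adjusted p = 2.36e-05). SQSTM1, the autophagy receptor that can draw KEAP1 away from NRF2, rose by 0.70 (adjusted p = 0.000134). The small MAF partners moved apart. MAFG rose by 0.58 (adjusted p = 0.00699, and 0.0736 without downregulated replicate 1), while MAFF fell by 0.80 (adjusted p = 0.00802, and 0.0627 without the same array).

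Of 9 other NRF2 targets tested, 4 rose and 2 fell (median log2 change 0.30), or 4 and 0 as deposited (median 0.58). SLC7A11, the cystine importer that feeds glutathione synthesis, had intensities of 1532 and 1589 in the downregulated clone, against 1109 and 1000.2 in the control clone (log2 change 0.56, adjusted p = 0.000256). TKT, a transketolase of the pentose phosphate pathway, rose by 0.30 (adjusted p = 0.00215). TALDO1, the transaldolase of the same pathway, fell by 0.46 (adjusted p = 0.000114), and UGP2, which makes UDP-glucose, fell by 0.39 (adjusted p = 0.000264). Neither fall was called as deposited, and UGP2 had a log2 change of 0.03 after median centring.

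NADPH pays for both reductases, and of 12 genes that supply it 2 rose and 3 fell (median log2 change -0.05), or 2 and 0 as deposited (median 0.31). PGD, of the oxidative pentose phosphate pathway, rose by 0.57 (adjusted p = 4.27e-05), and IDH1, the cytosolic isocitrate dehydrogenase, by 0.44 (adjusted p = 0.0185), a call lost without downregulated replicate 1 (adjusted p = 0.0929), control replicate 1 (adjusted p = 0.0694) or control replicate 2 (adjusted p = 0.0634). The mitochondrial enzymes MTHFD2 and IDH2 fell by 0.33 (adjusted p = 0.00105) and 0.29 (adjusted p = 0.0212), but neither was called as deposited, where IDH2 had a log2 change of 0.04. The call of IDH2 was also lost without downregulated replicate 1 (adjusted p = 0.0767), downregulated replicate 2 (adjusted p = 0.14) or control replicate 1 (adjusted p = 0.0738).

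Cysteine supply and glutathione turnover were mixed, with 4 of 16 genes higher and 5 lower (median log2 change -0.06), or 4 and 1 as deposited (median 0.13). CHAC1, which degrades glutathione inside the cell, had intensities of 71.2 and 77.6 in the downregulated clone, against 223 and 194 in the control clone, and fell by 1.31 (adjusted p = 0.000116). CTH, which makes cysteine from cystathionine, fell by 0.94 (adjusted p = 0.000189), and the neutral amino acid carrier SLC1A4 fell by 0.86 (adjusted p = 0.000116). Of these 3 falls, that of CHAC1 was also called as deposited (adjusted p = 0.000423). GGCT, which acts on gamma-glutamyl amino acids, rose by 0.41 (adjusted p = 0.000594).

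Of 13 other glutathione transferases, 1 rose and 2 fell (median log2 change -0.20), or 1 and 1 as deposited (median -0.05). GSTO1, an omega-class transferase with glutaredoxin-like activity, had intensities of 685 and 725 in the downregulated clone, against 2091 and 2293 in the control clone. It fell by 1.61 ± 0.067 (adjusted p = 1.33e-06), a 3.11-fold difference and the smallest adjusted p among the genes named here. GSTCD rose by 0.51 (adjusted p = 0.0139), a call lost without downregulated replicate 1 (adjusted p = 0.143) or control replicate 1 (adjusted p = 0.0506). GSTM4, a mu-class transferase at a probe set prone to cross-hybridisation, fell by 0.61 (adjusted p = 0.0207). That call was lost without downregulated replicate 1 (adjusted p = 0.0935), downregulated replicate 2 (adjusted p = 0.114) or control replicate 2 (adjusted p = 0.0611), and another GSTM4 probe set had a log2 change of 0.32.

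Selenoproteins and the makers of selenocysteine went both ways, with 4 of 18 higher and 6 lower (median log2 change 0.09), or 4 and 1 as deposited (median 0.20). SELENOW, a small thiol-containing selenoprotein, had intensities of 371 and 399.6 in the downregulated clone, against 143 and 191 in the control clone (log2 change 1.15, adjusted p = 0.000231), and SELENOS, of endoplasmic reticulum protein disposal, rose by 0.51 (adjusted p = 0.000323). SEPSECS, which makes the selenocysteine carried by its tRNA, had intensities of 52.6 and 61 in the downregulated clone, against 154 and 148 in the control clone, and fell by 1.20 (adjusted p = 0.000296). SELENOT, of the endoplasmic reticulum, fell by 0.64 (adjusted p = 3.34e-05), but not as deposited (adjusted p = 0.359).

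Among other thioredoxin-fold and repair genes, 4 of 20 rose and 8 fell (median log2 change -0.13), or 3 and 3 as deposited (median 0.18). SESN2, a stress-induced sestrin, had intensities of 111 and 123 in the downregulated clone, against 314 and 299 in the control clone (log2 change -1.28, adjusted p = 4.75e-05), and SESN3 fell by 0.98 (adjusted p = 0.000197). MSRB2, a mitochondrial methionine sulfoxide reductase, fell by 1.05 (adjusted p = 4.1e-05). All 3 were also called as deposited. TXNDC17, a thioredoxin-like cytosolic protein, rose by 0.34 (adjusted p = 0.000628).

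Of 15 genes that can produce reactive oxygen, 5 rose and 1 fell (median log2 change 0.12), or 5 and 1 as deposited (median 0.29). POR, the electron donor of microsomal cytochromes P450, rose by 0.94 (adjusted p = 0.00132), and ERO1A, the disulfide-forming oxidase of the endoplasmic reticulum, by 0.56 (adjusted p = 0.000183). The NADPH oxidase genes of this list went both ways. RAC1 and CYBA rose by 0.42 (adjusted p = 9.47e-05) and 0.27 (adjusted p = 0.00305), and NCF1 by 0.44 (adjusted p = 0.00389). NCF4 was the 1 fall, by 0.85 (adjusted p = 0.00407), and was called lower as deposited too (adjusted p = 0.0344). The probe sets of NCF1 and NCF4 are prone to cross-hybridisation. CYBB (log2 change -0.12) and RAC2 (-0.08) did not pass.

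In iron and heme handling, 5 of 16 rose and 2 fell (median log2 change 0.08), or 6 and 0 as deposited (median 0.30). FECH, ferrochelatase, which inserts iron into heme, had intensities of 832 and 795 in the downregulated clone, against 381 and 376 in the control clone (log2 change 1.07, adjusted p = 1.3e-05), and the iron chaperone PCBP1 rose by 0.58 (adjusted p = 4.03e-05). BLVRB, a biliverdin reductase, fell by 0.79 (adjusted p = 0.000165), and NCOA4, which delivers ferritin to lysosomes, by 0.52 (adjusted p = 4.98e-05). Neither fall was called as deposited. Of 12 ferroptosis regulators, 6 rose and 3 fell (median log2 change 0.15), or 5 and 0 as deposited (median 0.48). ALOX5, a lipoxygenase, fell by 0.89 (adjusted p = 9.69e-06) and SAT1, of polyamine breakdown, by 0.70 (adjusted p = 2.59e-05). The mitochondrial channel VDAC3 fell by 0.26 (adjusted p = 0.00647, and 0.0606 without downregulated replicate 2). None of these 3 falls was called as deposited, where VDAC3 had a log2 change of 0.11. COQ2, of coenzyme Q synthesis, rose by 0.44 (adjusted p = 0.00298).

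**Figure D4:**
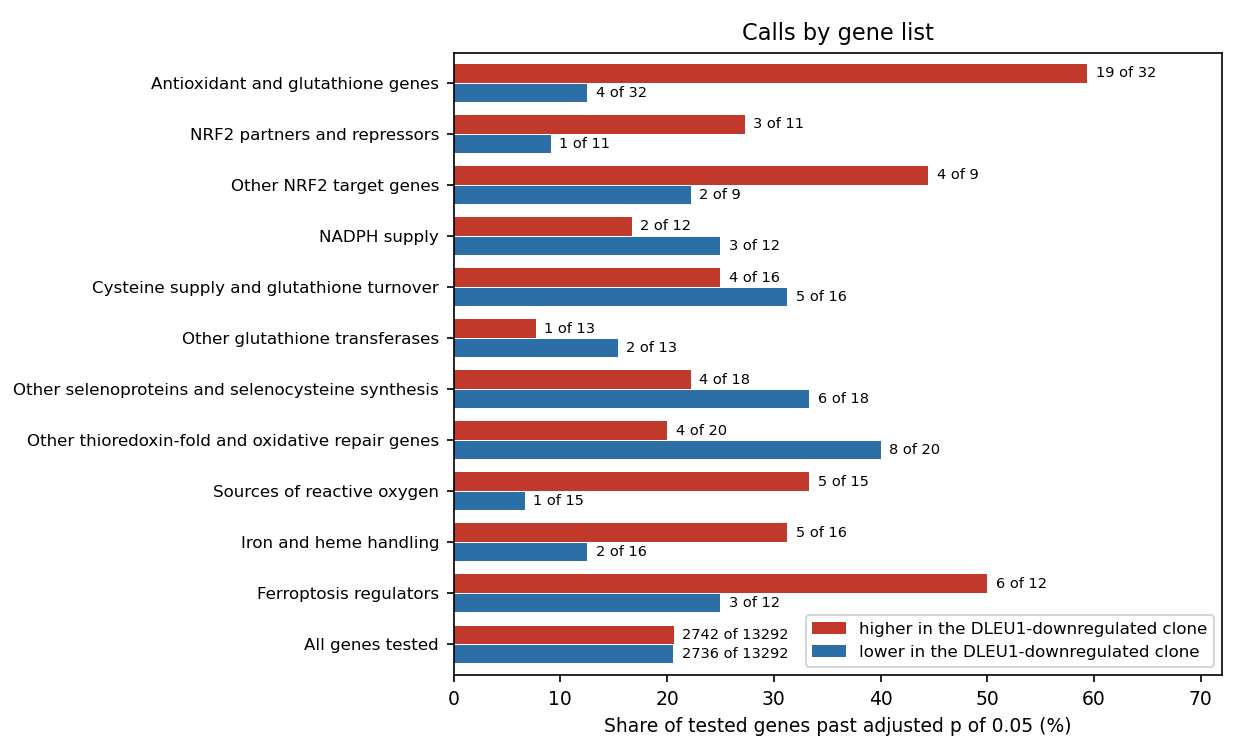
Share of the tested genes of each list past an adjusted p of 0.05 (x axis, %), higher (upper bar) or lower (lower bar) in the DLEU1-downregulated clone, with counts beside the bars and all 13292 genes tested at the bottom. The antioxidant and glutathione genes have 19 of 32 higher, against 2742 of 13292 for all genes tested, and the lists were chosen with earlier results of these data known.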

How the data were processed

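Gene expression was measured on 4 Affymetrix HG-U133 Plus 2.0 arrays, 2 of each clone. The authors deposited a linear signal intensity for 54613 probe sets and 62 control probe sets per array, made with MAS5 per the submitters' processing notes. The MAS5 version, target and detection calls are not given in the sources used here, so whether a dim value was above background is unknown, and the number of arrays limits the precision.

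Control probe sets were left out, the intensities were quantile normalized and turned into log2(value + 16), and the 21845 probe sets below the 40th percentile of mean log2 value were left out, which left 32768. Group was the only term. The fit was made in R 4.3.3 with limma 3.58.1 (lmFit, eBayes with an intensity trend), Benjamini-Hochberg adjustment and a threshold of 0.05. Intervals use the moderated standard error. It draws the variance of each probe set towards a trend over all of them, weighted by prior degrees of freedom. These were 6.76 in the main fit, beside 2 residual ones, but 145 after median centring and infinite as deposited. The p-values of those 2 scalings therefore rest little or not at all on a probe set's own spread. Symbols from the 2016 platform annotation were updated by gene identifier through RefSeq GRCh38.p14 (41037 of 41091 probe sets with 1 symbol), and the brightest probe set stood for each gene, which gave 13292 tested genes. RefSeq also gave the order of neighbouring genes.

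The members and the 10 further lists were chosen with earlier results of these data known. Genes named are DLEU1, all members, and in each further list the up to 4 called genes with the smallest p. NCF1, NCF4, CYBB and RAC2 are also named, beside the other NADPH oxidase genes. The fit was tested on simulated data. Alternatives were other scalings, pseudocounts, filters and thresholds, no trend, a replicate block, leaving out each array, and other choices of probe set.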

Additional observations from a re-analysis of the deposited data

How the results depend on the processing

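The count of 19 rises among the antioxidant genes was 20 as deposited and 27 after median centring. It fell to 11 without an intensity trend and to 2 with a 2-fold minimum. The 4 falls became 1 as deposited, after median centring, without a trend and with a 2-fold minimum. Some calls in both directions were lost when an array was left out, as given above for the genes concerned. Each fit without an array leaves 1 in a group, which is assumed to vary like the others. Among the further lists, 38 rises became 66 after median centring, 16 without a trend and 3 with a 2-fold minimum, and 33 falls became 8 as deposited, 13 after median centring, 20 without a trend and 5 with a 2-fold minimum. Of all genes tested, 36.7% rose and 8.42% fell after median centring, 12.2% and 12.7% without a trend, and 20.3% and 5.74% as deposited. With a 2-fold minimum 2.69% rose, and the share that fell was not computed. Over all probe sets, 11073 calls became 7293 as deposited, 7156 without a trend, 7158 at a threshold of 0.01, 1873 with a 2-fold minimum and 7010 to 10078 when an array was left out, the fewest without downregulated replicate 1 and 7356 without replicate 2.

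The log2 change took the other sign for GPX4 (0.13 as deposited, 0.17 after median centring), CAT (0.12 and 0.17), IDH2 (0.0429 and 0.0869, and 0.0238 with its probe sets averaged) and VDAC3 (0.11 and 0.16). After median centring it did so for TXNIP (0.0379), UGP2 (0.0302), and MTHFD2 (0.0342), with probe sets averaged for MGST3 (-0.45), and without the suffix _x_at for GSTM4 (0.32). Of the genes not called, PRDX3 (0.24 as deposited, 0.28 after median centring), TXN2 (0.30 and 0.34) and GSR (0.28 and 0.33) took the other sign in both scalings. With probe sets averaged the calls of CAT, HMOX2, GLRX3, MAFG, PGD, GSTCD, GSTM4, SESN3, TXNDC17, CYBA, COQ2 and VDAC3 were lost. The cause was not tested.

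With the replicate number as a block, 19 members rose and 4 fell and 11185 probe sets passed. The labels do not say that a number pairs arrays, and same-numbered arrays deviated from their group means with a correlation of -0.014 over probe sets. Values near or under the added 16, as for GPX7, GSTP1 and HMOX1, limit what can be said of their size.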
